A study of Homo sapiens with 4 samples.

Results

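The nuclear receptors are ligand-regulated transcription factors, and the family is described here in Hep-G2, a human hepatoma-derived cell line, with and without knockdown of FTO. The members were taken from a list of 43 gene symbols, with the HNF4 genes left out, a list drawn up with earlier results of these data known. Of these, 42 were matched among the 62893 genes of the count tables, and NR2E3 was not matched and has no value. The series compared shFTO cells, which carry the shRNA TRCN0000246247 against FTO, an RNA N6-methyladenosine demethylase, with scramble cells, which carry the control shRNA SHC002. All cells were at passage 21, each group carries a single shRNA, and total RNA was sequenced in 2 runs per group, 4 in all.

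A nuclear receptor binds DNA through a pair of zinc fingers and binds a small lipophilic ligand, such as a hormone, bile acid, oxysterol, fatty acid or retinoid, through a separate domain that recruits coactivators or corepressors. Many members pair with a retinoid X receptor (RXR), while the steroid receptors act as pairs of their own kind and some orphan receptors bind DNA alone. In hepatocytes the family is known for the control of bile acid, lipid, glucose and drug metabolism.

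Across the family, 5 receptors were at least 1.5-fold higher in shFTO cells than in scramble cells and 7 were at least 1.5-fold lower, beside 11.4% of all tested genes higher and 13.4% lower. The higher ones were NR3C1, NR2F2, NR1D2, THRB and NR1I2, and the lower ones were NR0B2, PPARG, NR4A1, NR5A2, NR6A1, RORA and NR2F1. The levels of NR3C1 (the glucocorticoid receptor) and NR2F2 (COUP-TFII) were about 3.03-fold and 2.99-fold higher, and NR0B2 (SHP) was 3.06-fold lower. RXRA, RXRB, THRA, NR2F6 and NR5A1 were within 1.5-fold.

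The bases that encode the first zinc finger are shown for 10 of the receptors past 1.5-fold, because that finger holds the P box, the stretch that reads the DNA element. The capitals mark the 15 bases of the P box. The first 4 lines are higher in shFTO cells, and the other 6 are lower.

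NR3C1: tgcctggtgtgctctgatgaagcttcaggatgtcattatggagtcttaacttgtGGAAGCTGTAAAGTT
NR2F2: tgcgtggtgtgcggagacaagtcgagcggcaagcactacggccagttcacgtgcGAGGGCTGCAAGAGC
THRB: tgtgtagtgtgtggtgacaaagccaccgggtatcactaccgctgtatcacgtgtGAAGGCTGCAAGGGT
NR1I2: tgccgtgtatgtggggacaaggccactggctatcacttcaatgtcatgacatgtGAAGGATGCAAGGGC
PPARG: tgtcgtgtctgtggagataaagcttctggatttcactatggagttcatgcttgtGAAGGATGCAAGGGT
NR4A1: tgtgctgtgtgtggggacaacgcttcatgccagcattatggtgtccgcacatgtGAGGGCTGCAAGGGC
NR5A2: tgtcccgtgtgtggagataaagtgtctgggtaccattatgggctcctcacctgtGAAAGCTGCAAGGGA
NR6A1: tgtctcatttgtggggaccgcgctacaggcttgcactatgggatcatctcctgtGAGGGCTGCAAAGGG
RORA: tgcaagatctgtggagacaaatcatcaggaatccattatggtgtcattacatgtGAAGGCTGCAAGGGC
NR2F1: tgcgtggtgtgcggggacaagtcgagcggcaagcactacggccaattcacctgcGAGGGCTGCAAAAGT

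These are the coding strands of GENCODE v29 transcripts (GRCh38), read 5′ to 3′. The finger was found in 40 of the 42 members, and not in NR0B1 or NR0B2, which are known to lack a DNA-binding domain. By the amino acids that the capitals encode, the 40 members fell into 6 groups. The largest group held 27 members, of which NR1D2, THRB and NR1I2 were higher and PPARG, NR4A1, NR6A1 and RORA were lower in shFTO cells. Of the 27, RARB, RORB, VDR, RXRG, NR4A2 and NR4A3 were too low to be tested, and NR1I3 had a mean under 1 CPM. Over all tested genes 11.4% were at least 1.5-fold higher and 13.4% lower. In the group of NR3C1, NR3C2 and PGR, NR3C1 was at least 1.5-fold higher, while NR3C2 had a mean under 1 CPM and PGR had no read. The COUP-TF group held NR2F2, which was higher, and NR2F1, which was lower, and the NR5A group held NR5A2, which was lower.

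Each run held between 20047409 and 20706611 reads assigned to genes. FTO had 116 and 128 reads in the shFTO runs, against 594 and 550 in the scramble runs. The runs of a group agreed within sampling noise, with a chi-square per degree of freedom of 1.01 in shFTO cells and 1.02 in scramble cells, so both were pooled and a group counts as 1 sample. Nothing in the labels says that the runs came from separate cultures. The comparison of shFTO with scramble cells has no replicate check, and no p-value is given for a gene. Levels are CPM, which are counts divided by library size, with the sizes adjusted by edgeR's TMM factors (trimmed mean of M values). A ratio is that of the pooled levels, and a gene is called when it is at least 1.5-fold higher or lower. The 95% Clopper-Pearson interval beside a ratio covers counting error only, as reads were amplified without molecular identifiers. In bulk samples fewer cells of a type and less RNA per cell cannot be told apart.

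The labelled cell type was checked on 14 hepatocyte markers, all of which were expressed enough to be tested. Their summed level was 19901 and 19845 CPM in the shFTO runs and 45025 and 44961 CPM in the scramble runs, with 10 markers called lower and 0 called higher. Of 12 fibroblast and stellate markers 3 were expressed enough to be tested, COL3A1, DCN, LUM, THY1 and POSTN had no read, and the summed level was 40.3 to 45.0 CPM in shFTO cells and 55.8 to 57.7 CPM in scramble cells. Of 12 endothelial markers 3 were tested, PECAM1 and KDR had no read, and the sum was 7.11 to 7.34 CPM in shFTO cells and 6.72 to 7.61 CPM in scramble cells. Of 12 leukocyte markers 6 were tested and PTPRC, CD3E and MS4A1 had no read. Their sum of 297 CPM in both shFTO runs and 3052 and 3060 CPM in the scramble runs was mostly LYZ, at 232 CPM in both shFTO runs and 3001 and 3008 CPM in the scramble runs. The part that the lower hepatocyte markers play in the receptor results was not tested.

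Of the 42 receptors, 30 passed the filter on low counts and 28 had a mean level of at least 1 CPM. Those 30 hold the 5 receptors called higher (16.7% of 30) and the 7 called lower (23.3% of 30), where 11.4% and 13.4% of the 13767 tested genes were called. At 2-fold, 3 receptors were higher, where 5.18% of all tested genes were, and 4 were lower, where 6.19% of all tested genes were. The median log2 ratio of the 30 receptors was -0.05, with an interquartile range from -0.36 to 0.47, and that of all tested genes was 0.01, from -0.30 to 0.29. The median size of the log2 ratio in either direction was 0.47 for receptors and 0.29 for all tested genes. The summed receptor level was 1160 CPM in shFTO cells and 1054 CPM in scramble cells. Overlap between shFTO and scramble runs is stated below for single receptors only, as the share without overlap over all tested genes was not taken. Because the runs of a group differ by sampling noise only, a lack of overlap adds no support to a call. With edgeR's quasi-likelihood test at a Benjamini-Hochberg adjusted p under 0.05, which here compares these libraries and not the conditions, 26 of the 30 receptors were called, 12 higher and 14 lower, against 66.6% of all tested genes.

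**Figure D1:**
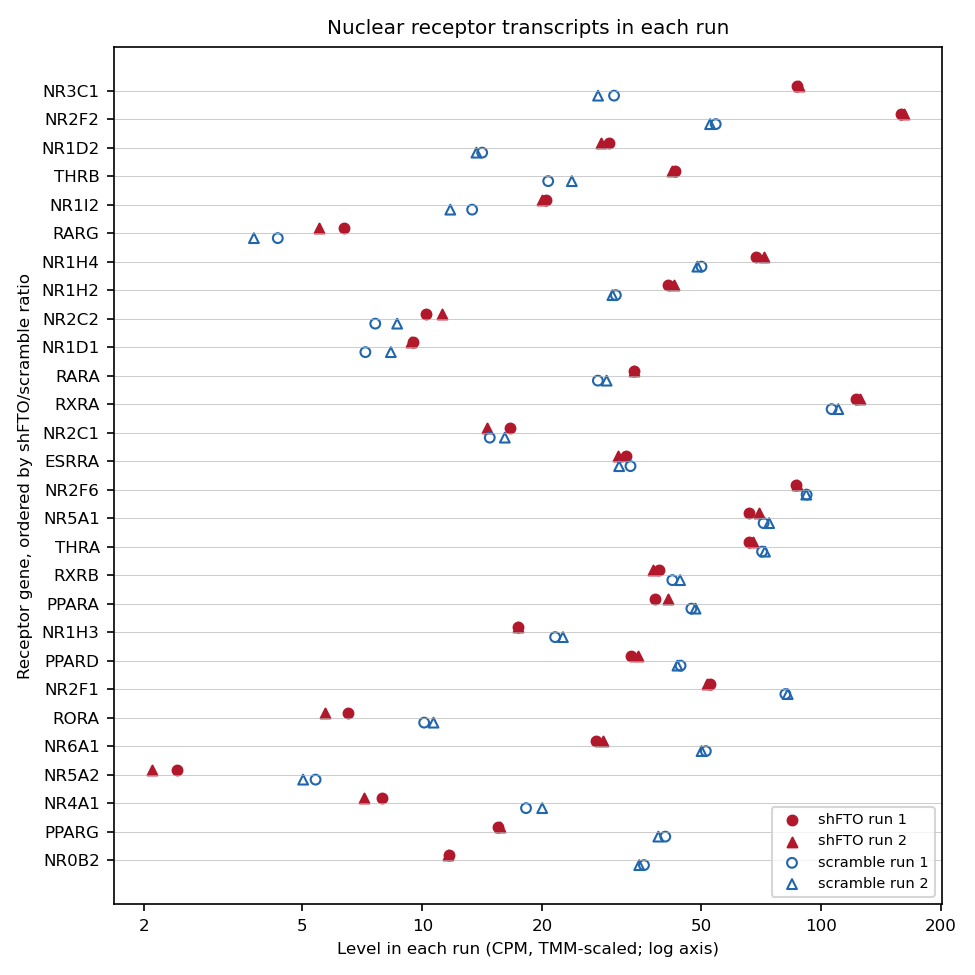
Level of each receptor with a mean of at least 1 CPM, in each run (x axis, TMM-scaled CPM on a log scale; filled red marks, shFTO runs; open blue marks, scramble runs), ordered from the highest to the lowest shFTO over scramble ratio. NR3C1 and NR2F2, at the top, lie near 87.7 and 160.3 CPM in shFTO cells and near 28.9 and 53.6 CPM in scramble cells, and the runs of a group lie close together.

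The endocrine receptors bind hormones with high affinity, and the glucocorticoid receptor among them is present in most cell types. NR3C1 (ENSG00000113580, chromosome 5) stood at 87.4 and 88.1 CPM in the shFTO runs, against 30.3 and 27.6 CPM in the scramble runs. Both shFTO runs lay far above both scramble runs, and the ratio was 3.03 (2.84 to 3.25). THRB (ENSG00000151090, chromosome 3), the thyroid hormone receptor beta that predominates in liver, stood at 43.04 and 42.2 CPM in the shFTO runs, against 20.7 and 23.7 CPM in the scramble runs. The groups did not overlap, and the ratio was 1.92 (1.77 to 2.08). THRA, the alpha form, stood at 66.7 CPM in shFTO cells and 71.8 CPM in scramble cells. THRB therefore made up 39.0% of the reads of both thyroid hormone receptors in shFTO cells (37.6 to 40.4%), against 23.6% in scramble cells (22.3 to 25.1%).

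The other steroid receptors in the list had few reads or none. NR3C2, the mineralocorticoid receptor, had 13 and 12 reads in the shFTO runs and 9 and 7 in the scramble runs. ESR1 had 0 reads in both shFTO runs and 0 and 1 in the scramble runs, and neither ESR2 nor PGR, the second oestrogen receptor and the progesterone receptor, had a read in any run. A count of 0 over the pooled runs allows up to 3 reads, or 0.0692 CPM in shFTO cells and 0.0785 CPM in scramble cells. VDR, the vitamin D receptor, had 2 and 1 reads in the shFTO runs and 1 and 2 in the scramble runs, too few to compare.

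The retinoic acid receptors bind all-trans retinoic acid. RARA stood at 34.0 CPM in shFTO cells and 28.3 CPM in scramble cells, and RARG at 5.93 CPM in shFTO cells and 4.06 CPM in scramble cells, with log2 ratios of 0.26 and 0.55. RARB had 0 and 4 reads in the shFTO runs and none in the scramble runs. The share of RARG in the reads of RARA and RARG was 14.9% in shFTO cells and 12.5% in scramble cells, with intervals that overlapped. RARG, at 1.46-fold, passed 1.5-fold without shFTO run 2 and without scramble run 1, at 1.57-fold in both cases, and with upper quartile scaling, at 1.51-fold.

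The RXRs are the shared partners of the lipid and retinoid sensors. RXRA stood at 123.9 CPM in shFTO cells and 108.5 CPM in scramble cells, and RXRB stood at 38.6 CPM in shFTO cells and 43.4 CPM in scramble cells. RXRG had no read in any run. Neither RXRA nor RXRB was called. Per kilobase of exon, RXRA stood at 11.2 CPM and RXRB at 9.84 CPM in shFTO cells, and RXRA at 9.79 CPM and RXRB at 11.1 CPM in scramble cells.

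The lipid, bile acid and xenobiotic sensors held called members in both directions. PPARG (ENSG00000132170, chromosome 3), the fatty acid receptor that drives fat storage in adipocytes, stood at 15.5 and 15.6 CPM in the shFTO runs, against 40.7 and 39.1 CPM in the scramble runs. The shFTO runs were well below the scramble runs, and the level was 2.56-fold lower (2.34 to 2.81). PPARA, the receptor of fasting fat oxidation in liver, stood at 40.0 CPM in shFTO cells and 47.9 CPM in scramble cells, and the widely expressed PPARD at 34.2 CPM in shFTO cells and 44.1 CPM in scramble cells. PPARG held 17.4% of the reads of the 3 PPARs in shFTO cells and 30.3% in scramble cells, while PPARA held 44.6% in shFTO cells and 36.3% in scramble cells.

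NR1I2 (ENSG00000144852, chromosome 3), the pregnane X receptor (PXR) that senses drugs, stood at 20.4 and 19.9 CPM in the shFTO runs, against 13.3 and 11.8 CPM in the scramble runs. It was 1.61-fold higher (1.44 to 1.80), and the groups did not overlap. NR1I2 shares 219 exon bases with AC069444.2 on the same strand, a gene not analysed here. NR1I3, the constitutive androstane receptor (CAR), had 15 and 13 reads in the shFTO runs and 13 and 17 in the scramble runs. NR1I3 shares 661 exon bases with TOMM40L on the opposite strand, and the strand setting of the counting is not given in the sources used here.

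NR1H4, the bile acid receptor FXR, stood at 70.2 CPM in shFTO cells and 49.6 CPM in scramble cells, a ratio of 1.42 (1.34 to 1.501) that is just inside the limit. The oxysterol receptor LXR beta, NR1H2, stood at 42.1 CPM in shFTO cells and 30.3 CPM in scramble cells, and LXR alpha, NR1H3, at 17.4 CPM in shFTO cells and 22.04 CPM in scramble cells. NR1H2 thus held 70.7% of LXR reads in shFTO cells and 57.9% in scramble cells.

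NR0B2 (ENSG00000131910, chromosome 1) encodes SHP, which FXR induces and which represses other receptors, and it gave the largest fold difference downward among receptors of at least 1 CPM. It stood at 11.6 CPM in both shFTO runs, against 35.99 and 35.01 CPM in the scramble runs. All shFTO values lay under all scramble values, and the level was 3.06-fold lower (2.76 to 3.39). NR5A2 (ENSG00000116833, chromosome 1), LRH-1, an activator of bile acid synthesis that SHP represses, stood at 2.43 and 2.097 CPM in the shFTO runs, against 5.40 and 5.02 CPM in the scramble runs. It was 2.30-fold lower (1.80 to 2.96), from 52 and 46 reads in the shFTO runs and 102 and 97 in the scramble runs. Its paralogue NR5A1 (SF-1), best known from the adrenal gland and gonads, stood at 68.1 CPM in shFTO cells and 73.0 CPM in scramble cells. NR5A2 made up 3.22% of NR5A reads in shFTO cells (2.62 to 3.90%) and 6.66% in scramble cells (5.79 to 7.61%). NR0B1 (DAX1), the relative of SHP that binds SF-1, had no read.

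The orphan receptors COUP-TFI (NR2F1) and COUP-TFII (NR2F2), regulators of developmental and vascular programmes, were called in opposite directions. NR2F2 (ENSG00000185551, chromosome 15) stood at 158.6 and 162.0 CPM in the shFTO runs, against 54.5 and 52.7 CPM in the scramble runs. The ratio was 2.99 (2.85 to 3.14), without overlap of the groups. NR2F1 (ENSG00000175745, chromosome 5) stood at 52.7 and 51.9 CPM in the shFTO runs, against 81.5 and 82.6 CPM in the scramble runs. It was 1.57-fold lower (1.49 to 1.66) with TMM scaling and 1.40-fold lower with plain library size, so its call rests on the scaling. NR2F6, the remaining COUP-TF relative, stood at 86.8 CPM in shFTO cells and 92.0 CPM in scramble cells. NR2F2 held 53.5% of the reads of the 3 genes in shFTO cells and 23.5% in scramble cells, and NR2F1 held 17.5% in shFTO cells and 36.0% in scramble cells.

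Among other orphans, NR6A1 (ENSG00000148200, chromosome 9), the germ cell nuclear factor, stood at 27.3 and 28.4 CPM in the shFTO runs, against 51.5 and 50.2 CPM in the scramble runs. It was 1.82-fold lower (1.69 to 1.96), and the groups did not overlap. NR2C1 (TR2) and NR2C2 (TR4), which bind direct repeats, had log2 ratios of 0.01 and 0.40. NR2C2 shares 1197 exon bases with MRPS25 and 155 with FGD5-AS1 on the opposite strand. Without the strand setting it is not known whether its reads were told apart from theirs there.

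The clock-linked receptors NR1D2 and RORA act on the same DNA elements, REV-ERBs as repressors and RORs as activators. NR1D2 (ENSG00000174738, chromosome 3), REV-ERB beta, stood at 29.4 and 28.1 CPM in the shFTO runs, against 14.1 and 13.7 CPM in the scramble runs. It was 2.07-fold higher (1.87 to 2.29). NR1D1, REV-ERB alpha, stood at 9.42 CPM in shFTO cells and 7.78 CPM in scramble cells, so that NR1D2 held 75.3% of REV-ERB reads in shFTO cells and 64.1% in scramble cells. NR1D1 and THRA share 263 exon bases on opposite strands. RORA (ENSG00000069667, chromosome 15) stood at 6.496 and 5.70 CPM in the shFTO runs, against 10.1 and 10.7 CPM in the scramble runs, 1.71-fold lower (1.46 to 2.001). For NR1D2 and RORA alike the groups did not overlap, and RORB had 0 and 1 reads in the shFTO runs and none in the scramble runs.

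NR4A1 (ENSG00000123358, chromosome 12), Nur77, an immediate early gene that needs no ligand, stood at 7.95 and 7.16 CPM in the shFTO runs, against 18.2 and 19.99 CPM in the scramble runs. Both shFTO runs lay under both scramble runs, and the level was 2.53-fold lower (2.22 to 2.89). Its relatives NR4A2 and NR4A3 had at most 8 reads in any run. Of the oestrogen-related receptors, which act with PGC-1 coactivators on mitochondrial genes, ESRRA stood at 31.7 CPM in shFTO cells and 32.2 CPM in scramble cells, and ESRRB and ESRRG had at most 7 reads in a run. ESRRA shares 284 exon bases with TRMT112, RXRB 244 with SLC39A7, NR1H3 189 with ACP2, RARA 556 with RARA-AS1, NR2F1 158 with NR2F1-AS1, RORA 564 with RORA-AS1 and NR4A1 754 with AC025259.3, all on opposite strands. AC025259.3 had no read, and NR2F1-AS1 and RORA-AS1 had at most 30 and 9 reads in a run. SLC39A7 had far more reads than RXRB, with 8245 and 8428 in the shFTO runs and 12316 and 12462 in the scramble runs. TRMT112 had far more than ESRRA, with 5353 and 5369 in the shFTO runs and 5067 and 5288 in the scramble runs. What these overlaps add to the counts of RXRB and ESRRA was not tested.

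**Figure D2:**
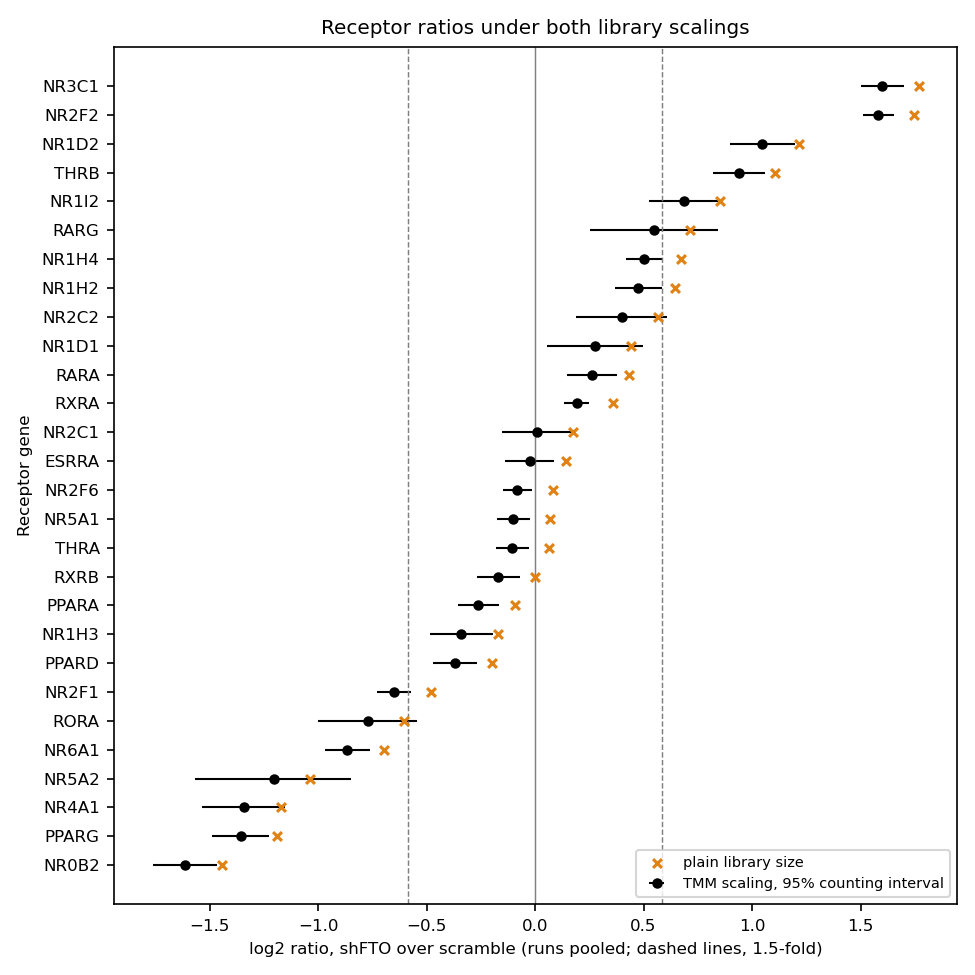
Log2 ratio of shFTO over scramble for each receptor with at least 1 CPM (black points with 95% counting intervals, TMM scaling; orange crosses, plain library size; dashed lines, 1.5-fold). NR3C1 lies at 1.60 and NR0B2 at -1.61 with TMM scaling, and the crosses lie 0.17 to the right of the points for every receptor.

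Plain library size moved every log2 ratio up by 0.17. It gave 9 receptors higher and 6 lower, and over all tested genes 2414 higher and 1305 lower, where TMM scaling gave 1569 higher and 1841 lower. RARG, NR1H4 and NR1H2 then passed 1.5-fold, at 1.64, 1.59 and 1.56, and NR2F1 no longer did. The other receptor added to the higher ones was NR3C2, whose mean level was 0.50 CPM with TMM scaling. NR3C2 had 25 reads in shFTO cells and 16 in scramble cells, so its call rests on few reads. The sign of the ratio of THRA, NR2F6, ESRRA and NR5A1 also turned, though none of these was called.

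Because shares within a paralogue group need no scaling between libraries, they were compared for 9 groups. They are shares of reads, not adjusted for gene length. The 95% intervals of the 2 groups of cells lay apart in 8 of the 9, the exception being RARG of RARA and RARG. For NR2C2 of NR2C1 and NR2C2 the gap was narrow. Its interval began at 37.99% in shFTO cells and ended at 37.72% in scramble cells. These intervals cover counting error only, and edgeR's quasi-likelihood test called 66.6% of all tested genes between these libraries. Paralogue groups outside the family were not compared, so the count of 8 is a description.

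**Figure D3:**
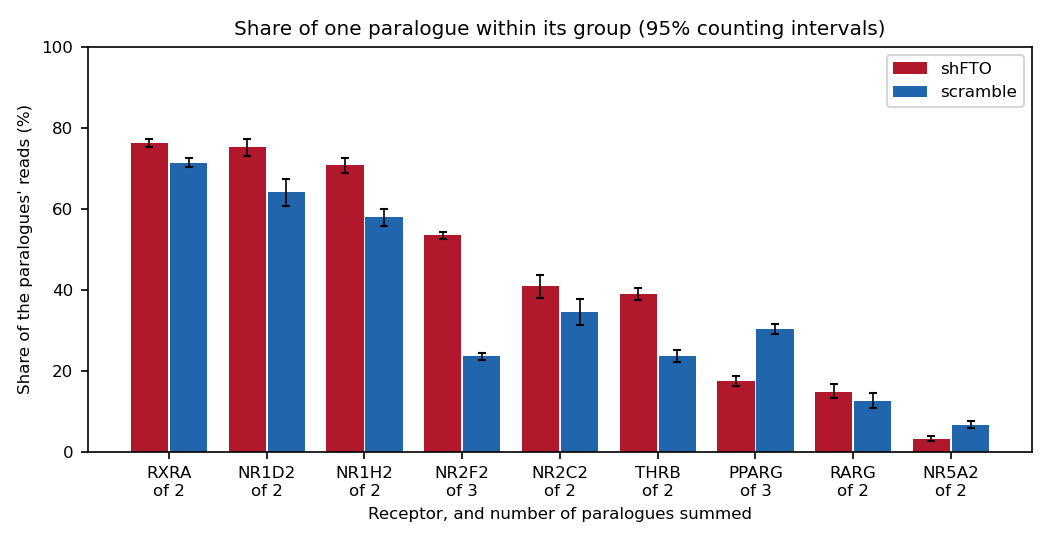
Share of a receptor in the summed reads of its paralogues (y axis, %; red bars, shFTO cells; blue bars, scramble cells; whiskers, 95% counting intervals), with the number of paralogues summed under each name. The widest gap is that of NR2F2 among 3 COUP-TF genes, at 53.5% in shFTO cells and 23.5% in scramble cells, and PPARG and NR5A2 are lower in shFTO cells.

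Per kilobase of merged exon length, which lets genes be compared, the order of the receptors differed between shFTO and scramble cells. NR2F6 was highest in both, at 32.5 CPM per kb in shFTO cells and 34.4 CPM per kb in scramble cells. NR2F2 was next in shFTO cells, at 24.8 CPM per kb, and stood at place 12 in scramble cells, at 8.30 CPM per kb. NR0B2 was at place 9 in shFTO cells, at 10.04 CPM per kb, and at place 2 in scramble cells, at 30.7 CPM per kb. NR5A1, at place 3 in both, stood at 19.9 CPM per kb in shFTO cells and 21.3 CPM per kb in scramble cells. In shFTO cells NR5A1 and NR1H4, at 19.9 and 19.4 CPM per kb, lay close together. NR3C1 was at place 12 in shFTO cells, at 9.56 CPM per kb, against place 18 in scramble cells, at 3.15 CPM per kb. Gene lengths came from GENCODE v29, which is not the annotation of the counting, so neighbouring places in this order are not told apart.

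Promoters were read for motifs known to drive receptor genes. RefSeq windows (GRCh38.p14) of 300 bases around a start site were in the table for 38 of the 42 receptors, not for NR0B2, VDR, NR2F6 or NR4A2. The core hexamer AGGTCA that most receptors bind, searched on both strands, was in 26.3% of these 38 receptors, against 16.5% of 27305 genes, and in 16.5% of receptor windows, against 13.8% of all windows. The E-box CACGTG, which clock factors bind and which reads the same on both strands, was in 18.4% of receptors and 8.78% of all genes, and in 9.89% of receptor windows and 7.26% of all windows. The cyclic AMP element TGACGTCA was in 2.63% of receptors and 2.25% of all genes, but per window the order turned, with 1.10% of receptor windows and 1.85% of all windows. The 38 receptors have 91 windows and the 27305 genes have 35116, so the receptors have more windows per gene, and these shares are a description.

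For the receptors called, AGGTCA was in 0 of the 5 higher in shFTO cells and in 2 of the 6 lower ones that are in the table, PPARG and NR5A2. CACGTG was in 2 of the 5 higher ones, NR1D2 and NR2F2, and in 0 of the 6 lower ones. TGACGTCA was in 0 of the 5 higher ones and in 1 of the 6 lower ones, NR6A1. The stretches with AGGTCA or CACGTG are shown for 3 receptors, with the motif in capitals, 5′ to 3′ on the gene's strand. They lie upstream of a start site at chr3:23945946-23946043 (+) for NR1D2, chr3:12287131-12287211 (+) for PPARG and chr1:200027606-200027653 (+) for NR5A2.

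NR1D2: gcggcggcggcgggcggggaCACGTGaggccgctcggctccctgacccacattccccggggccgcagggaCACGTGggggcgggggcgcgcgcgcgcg
PPARG: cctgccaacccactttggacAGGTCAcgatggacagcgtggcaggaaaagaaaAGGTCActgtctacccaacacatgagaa
NR5A2: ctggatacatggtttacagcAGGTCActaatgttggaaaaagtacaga

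NR1D2 holds 2 E-boxes in the 98 bases shown and PPARG 2 hexamers in the 81 bases shown. In NR2F2 the E-boxes lie at an internal start site, in a 105-base stretch that shares 42 bases with the zinc finger coding sequence printed above. A match of letters does not show that a factor binds there.

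Cofactors were read from fixed lists. Of 18 tested coactivators 3 were called higher and 1 lower (median log2 0.17). NCOA1 (SRC-1), a steroid receptor coactivator, was 2.62-fold higher (2.35 to 2.93), at 29.5 CPM in shFTO cells and 11.3 CPM in scramble cells, and the acetyltransferase KAT2B was 2.23-fold higher. The PGC-1 pair parted, with PPARGC1B 1.86-fold higher and PPARGC1A, the fasting coactivator, 2.30-fold lower, at 15.9 CPM in shFTO cells and 36.7 CPM in scramble cells. Of 11 corepressors 3 were called higher and 0 lower (median 0.13). Among them were NRIP1 at 1.57-fold and TBL1XR1 at 1.53-fold (1.43 to 1.63), which was 1.47-fold without scramble run 2, with NCOR1, named after its value was seen, at 1.49.

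Enzymes and carriers of ligands had 5 of 18 tested genes higher and 6 lower (median 0.25). In the retinoid branch, ALDH1A1, which makes retinoic acid, stood at 3372 CPM in shFTO cells and 783.2 CPM in scramble cells, 4.31-fold higher (4.25 to 4.36). CYP26B1, which degrades it, had 137 and 129 reads in the shFTO runs and 5 and 4 in the scramble runs, a ratio of 26.1 (13.5 to 57.6). The retinal reductase DHRS3 was 1.61-fold lower, and 1.44-fold lower with plain library size, which ends its call. CYP24A1, which degrades vitamin D, was 1.60-fold higher, at 110.5 CPM in shFTO cells and 69.2 CPM in scramble cells. In bile acid synthesis, CYP8B1 was 10.9-fold lower (5.87 to 22.6), with 3 and 8 reads in the shFTO runs and 58 and 48 in the scramble runs. Without shFTO run 2 it was 19.8-fold lower. Without shFTO run 1 its log2 ratio was -2.93, against -3.45 with all runs. AKR1D1 was 2.32-fold lower, and the fatty acid carrier FABP1 was 33.2-fold lower.

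Most lists of known target genes held genes called in both directions. Of 13 tested glucocorticoid receptor targets 2 were called higher and 6 lower (median -0.30). TSC22D3 (GILZ) was 1.79-fold higher (1.18 to 2.76) and KLF9 1.67-fold higher (1.28 to 2.19), though without scramble run 1 KLF9 was at 1.47-fold and not called. FKBP5 and PER1, named after their values were seen, stood at 1.19 and 1.06. CEBPD was 4.17-fold lower, and the gluconeogenic G6PC1 was lower by far, with 3 and 6 reads in the shFTO runs and 143 and 168 in the scramble runs. Of 8 thyroid hormone receptor targets 4 were higher and 2 lower (median 0.60), with HR 3.16-fold higher and SHBG 3.20-fold lower.

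Of 15 PPARA targets 2 were higher and 7 lower (median -0.56). The mitochondrial acyl transferase CPT1A was 1.93-fold higher and ACSL1 2.19-fold higher, while the lipid droplet protein PLIN2 was 2.82-fold lower and CREB3L3 3.32-fold lower. Of 14 LXR targets 1 was higher and 2 were lower (median -0.16), with SREBF1 at 1.53-fold higher (1.46 to 1.61) and TTC39B 5.42-fold lower. Without scramble run 1 SREBF1 was at 1.49-fold, which ends the only higher call of that list. FXR targets had 1 of 15 higher and 8 lower (median -0.60), the list including NR0B2 itself. KNG1 was 2.42-fold higher, and the fibrinogen chain genes FGA, FGB and FGG had log2 ratios of -6.30, -5.73 and -5.49. The FXR list holds secreted liver proteins, and the hepatocyte markers given above were lower in the same libraries. A relation between the FXR targets and those markers was not tested. PXR and CAR targets had 4 of 10 higher and 1 lower (median 0.45), with CYP3A5 1.99-fold higher and UGT1A1 8.40-fold lower. GSTA1 and GSTA2 were 3.89-fold and 11.7-fold higher, but they are near-identical copies whose reads may be split, so these values are uncertain.

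Retinoic acid receptor targets had 3 of 7 higher and 1 lower (median 0.19), with CYP26B1 and RARRES2 (2.30-fold) among the higher ones. Of 3 tested vitamin D receptor targets CYP24A1 was higher and 2 were lower (median -0.74). CD14, which was among the lower ones at 1.67-fold, was 1.25-fold lower without scramble run 1 and 1.49-fold lower with plain library size, which ends its call. REV-ERB and ROR targets had 2 of 13 higher and 4 lower (median -0.26), NR1D2 being counted in its own list. E2F8 was 1.54-fold higher (1.37 to 1.73), but at 1.48-fold without shFTO run 2 and 1.46-fold without scramble run 1 it was not called. BMAL1, named after its value was seen, had a log2 ratio of -0.23. Of 15 oestrogen-related receptor targets 0 were higher and 1 was lower (median -0.06), UQCRC1 at 1.51-fold. That call ended with plain library size (1.34-fold), with upper quartile scaling (1.46-fold), without shFTO run 2 (1.497-fold) and without scramble run 2 (1.49-fold). Of 6 oestrogen receptor targets 0 were higher and 3 lower (median -0.60), among them CTSD at 2.41-fold. GREB1 and STC2, both 1.61-fold lower, were 1.43-fold lower with plain library size and then not called.

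Early response genes, the kin of NR4A1 in induction, had 2 of 12 higher and 4 lower (median -0.20). FOS was 5.34-fold lower and IER3 2.89-fold lower, whereas JUN was 1.58-fold higher. SHP and LRH-1 targets had 2 of 12 higher and 5 lower (median -0.15), the list including NR0B2. CCND1 was 2.78-fold higher, at 894.5 CPM in shFTO cells and 321.2 CPM in scramble cells, CEL was 2.38-fold higher and AFP had a log2 ratio of -6.16. These counts stand beside 11.4% of all tested genes called higher and 13.4% called lower, and no list was tested as a set. With plain library size, called coactivators numbered 5 higher and 1 lower, ligand enzymes and carriers 6 higher and 3 lower, and FXR targets 2 higher and 7 lower. The lower calls then numbered 0 for retinoic acid receptor targets, 1 for vitamin D receptor targets, 0 for oestrogen-related receptor targets and 1 for oestrogen receptor targets.

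**Figure D4:**
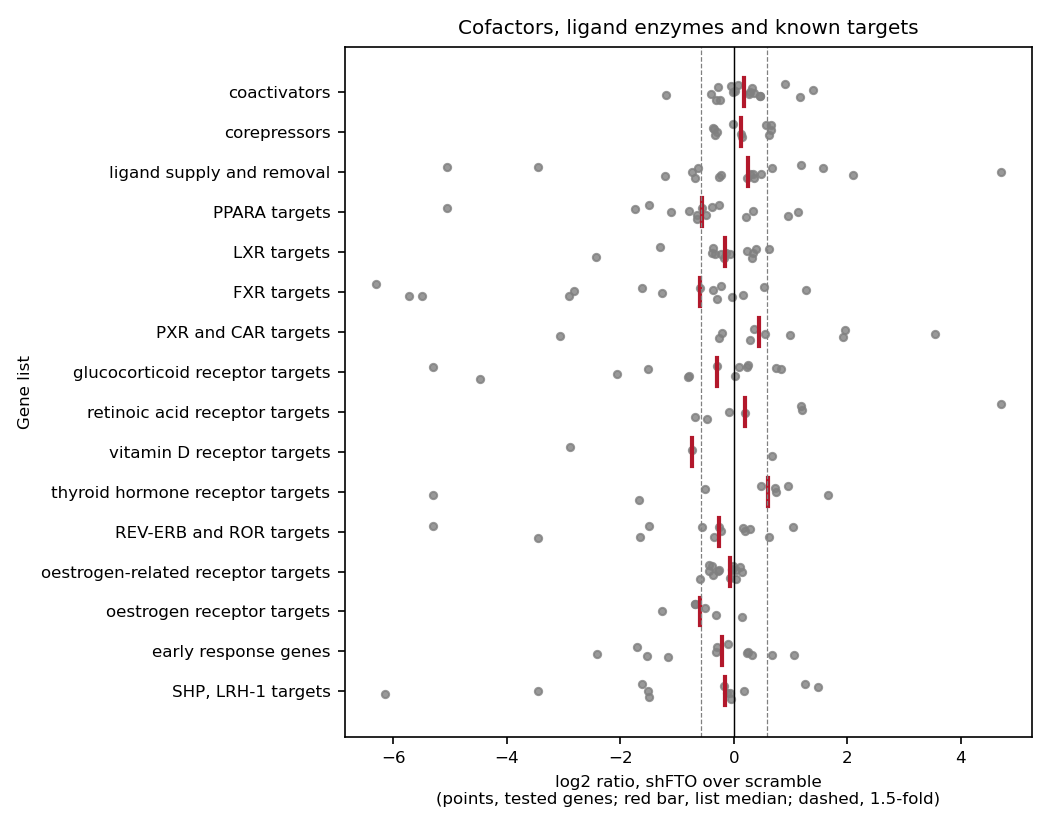
Log2 ratio of shFTO over scramble for each tested gene of the cofactor, ligand enzyme and target lists (grey points), with the list median (red bar) and the 1.5-fold limits (dashed). Medians run from -0.74 for vitamin D receptor targets, of which 3 were tested, to 0.60 for thyroid hormone receptor targets, and most lists have points on both sides of 0.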

How the data were processed

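The deposited values are raw counts of reads per Ensembl gene, made by the authors and not normalized. HTSeq 0.6.0, TopHat2 2.1.1 and the build hg19 are named in the submitters' processing notes. The annotation release, the strand setting and the read length are not given in the sources used here. Groups and replicate numbers come from the labels. Totals were 20220271 and 20706611 reads for shFTO and 20047409 and 20474554 for scramble. Symbols, lengths and overlapping exons came from GENCODE v29 (GRCh38, another build, so no gene coordinates are given), which named 51537 of 62893 identifiers. Promoters came from the RefSeq table of GRCh38.p14, and zinc finger bases from the longest open reading frame of GENCODE v29 transcripts.

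The members and lists were chosen with earlier results of these data known. Of 308 list genes all were matched, but NCOA4, TXNIP and ME1 were listed at 0 and were not used. The chi-square test of runs within a group covered genes with at least 20 reads (shFTO, 13674 genes, p = 0.142; scramble, 13359 genes, p = 0.0648; runs of different groups, 118 to 120 per degree of freedom) and then pooled. Ratios used edgeR 4.0.16 TMM scaling (R 4.3.3), and filterByExpr left 13767 genes. The edgeR quasi-likelihood test, two-sided, was checked on simulated data, and because its calls compare libraries only their counts are given. Named genes are FTO, the receptors, and in each list up to 3 genes each way with the largest ratio among those of at least 1 CPM and 1.5-fold, some of which are not reported here. Alternatives were other scalings, filters and limits, DESeq2 1.42.0, a replicate block and leaving out each run.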

Additional observations from a re-analysis of the deposited data

How the results depend on the processing

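Of the counts by fold, the 5 receptors higher and 7 lower in shFTO cells became 9 and 6 with plain library size, and 3 and 4 at 2-fold. Keeping every gene with at least 1 read gave 8 receptors higher and 9 lower, where a gene with reads in a single group counted as called. The receptors added were RARB, RORB and NR4A2, higher, and ESR1 and ESRRB, lower, with at most 8 reads in a run. Over all genes, plain library size gave 2414 higher, that looser filter 7019 higher and 6040 lower, a 2-fold limit 713 and 852, and a requirement that the whole interval lie past 1.5-fold 830 and 1125. Leaving out a run gave 5 to 7 receptors higher and 7 lower, and 1580 to 1657 genes higher and 1841 to 1905 lower. With the replicate number as a block, edgeR called 9216 genes and 26 receptors, against 9170 and 26 without it. The deviations of same-numbered runs from their group means had a correlation of 0.0016 over 13767 genes. Because the runs of a group differ by sampling noise only, this value cannot show whether same-numbered runs were prepared together. DESeq2 called 6880 genes and 20 receptors, edgeR without the filter 8253 and 24, and edgeR without a run 8372 to 8481 genes and 22 to 24 receptors. Of the 82 named genes, 49 moved outside their counting interval with plain library size, 7 with upper quartile scaling and 1, ALDH1A1, when either scramble run was left out. None of the named genes past 1.5-fold changed direction under these alternatives. Calls ended for 6 named genes when a run was left out and for 6 with plain library size. Among the receptors called, NR1I2, RORA and NR2F1 have intervals that reach under 1.5-fold. Depth limits receptors with under 10 reads, which cannot be compared, and culture-to-culture error cannot be had from these runs.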
